A study of Homo sapiens with 9 samples.

Results

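The BCL2 family decides whether the outer mitochondrial membrane of a stressed cell is breached, and 10 of its genes were followed here by their annotated symbols: the pore formers BAX and BAK1, the BH3-only genes BBC3, PMAIP1, HRK, BCL2L11 and BID, and the survival genes BCL2, BCL2L1 and MCL1. Of the 22011 probe sets in the table, 10 were annotated to these genes, 9 of them to a single member. MCL1 was covered only by a probe set (2434438) that it shares with ADAMTSL4 and ADAMTSL4-AS1, so the values of that probe set belong to no single gene. Probe sets were matched to the genes by symbol, and the 10 genes were chosen with earlier results of these data known.

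Expression was measured with Affymetrix whole-transcript arrays at 48 h after transfection of siRNA into HEK293, a line derived from human embryonic kidney. The groups were siDBC1, against DBC1 (the protein of the gene CCAR2), siZNF326, against ZNF326 (also called ZIRD), and siCTR, a control siRNA. Each group held 3 arrays from 3 independent experiments, 9 arrays in all. All groups were the same line, grown in serum and transfected. DBC1 and ZNF326 are studied as subunits of one complex, and the comparisons ask which transcripts differ when either is depleted. HEK293 carries adenovirus E1 genes, whose products alter the control of growth and apoptosis, which limits the line as a model of cell death.

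BAX and BAK1 proteins form the pores that release cytochrome c. Survival proteins (BCL2, BCL-XL from BCL2L1, and MCL1) hold them in check. BH3-only proteins free or activate them: PUMA from BBC3, NOXA from PMAIP1, BIM from BCL2L11 and Harakiri from HRK are controlled mainly through their transcripts, and BID is activated when caspase-8 cuts it. BCL2L1, MCL1 and BCL2L11 also give splice forms of opposite or unequal strength, and 1 value per probe set does not tell these forms apart.

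Values are log2 expression values. CCAR2, the target of siDBC1, read 6.50, 6.54 and 6.65 in siDBC1 and 7.67, 7.67 and 7.84 in siCTR, a difference of −1.16 (SE 0.079, limma adjusted p = 0.0116). The call ended without siCTR replicate 2, siDBC1 replicate 1, siDBC1 replicate 2 or siZNF326 replicate 3, and in a fit of siDBC1 and siCTR alone. ZNF326 read 6.12, 5.56 and 5.81 on the arrays labelled siZNF326 and 5.25, 5.64 and 5.76 in siCTR, a difference of 0.28 (SE 0.39, limma adjusted p = 0.851). The depletion named by that label was thus not seen in the transcript, and siZNF326 below is the label of those arrays. In siDBC1, ZNF326 read 6.24, 5.64 and 7.32, a difference from siCTR of 0.85 (SE 0.39, limma adjusted p = 0.844). In siZNF326, CCAR2 read 8.01, 7.95 and 7.99, a difference from siCTR of 0.26 (SE 0.079, limma adjusted p = 0.377). Array medians were 5.58 to 5.89 (siDBC1), 5.76 to 5.90 (siZNF326) and 5.67 to 5.78 (siCTR), with the lowest on siDBC1 replicate 2 and the highest on siZNF326 replicate 1 and siDBC1 replicate 3. Of 9 measured HEK293 markers 7 lay above the array median on all 9 arrays, and 4 of 4 haematopoietic, 3 of 5 fibroblast and 2 of 3 hepatocyte markers lay below it on all 9. The HEK293 marker EYA1 lay below the array median on 7 arrays and NEFM on 1. The fibroblast marker COL1A1 lay above it on all 9, and the hepatocyte marker APOA1 was below it on 1. The summed log2 values of the HEK293 markers were 65.9 to 70.1 (siDBC1), 69.6 to 72.2 (siZNF326) and 66.3 to 67.9 (siCTR), and their part in the results was not tested. Fewer cells of a kind and less RNA per cell cannot be told apart in such bulk samples.

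BAX and HRK were the members whose 3 arrays in both siDBC1 and siZNF326 did not overlap the 3 siCTR arrays. Shares over all probe sets are given below for each comparison alone. The share for both together was not counted, and both use the same siCTR arrays. The 250 bases before the transcription start of BAX and HRK are shown because each held a different known element. They come from RefSeq on GRCh38.p14, which held promoters for 9 of the 10 members (not MCL1). In BAX (chr19:48954625-48954874, plus strand) capitals mark the E-box CACGTG, a site class read by MYC, USF and TFEB proteins. In HRK (chr12:116881442-116881691, minus strand) they mark the element TGATGNAAN bound by ATF4 and CHOP.
BAX: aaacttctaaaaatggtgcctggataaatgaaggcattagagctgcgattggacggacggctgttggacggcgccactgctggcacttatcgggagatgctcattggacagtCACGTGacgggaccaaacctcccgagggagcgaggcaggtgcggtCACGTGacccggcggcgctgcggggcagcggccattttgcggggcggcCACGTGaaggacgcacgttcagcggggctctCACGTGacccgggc
HRK: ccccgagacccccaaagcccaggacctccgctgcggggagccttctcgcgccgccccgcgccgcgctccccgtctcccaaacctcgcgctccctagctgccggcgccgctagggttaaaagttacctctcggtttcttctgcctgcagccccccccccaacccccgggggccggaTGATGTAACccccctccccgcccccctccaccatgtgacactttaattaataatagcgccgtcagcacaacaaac

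Both strands of the 300 bases from 250 before to 50 after each start were searched. The BAX promoter held 4 E-boxes, beginning 138, 93, 45 and 14 bases before the start. At least 1 E-box stood in 7.26% of the 35116 promoters of the table and at least 4 in 0.0142%. Of the 4, 3 had the longer form TCACGTGA, which contains the E-box. At least 1 copy of the longer form stood in 0.98% of promoters and at least 3 in 0.0114%. BBC3 held 1 E-box, also in the longer form, 232 bases before the start. For BID, 2 of the 5 listed promoters overlap and share 1 E-box, not in the longer form. The search for E-boxes was added after the BAX sequence and values had been seen. The ATF4 and CHOP element stood in HRK alone among the 9 members, as TGATGTAAC 75 bases before the start, and in 3.61% of all promoters. These matches describe letters in a window and show no binding.

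None of the 10 probe sets passed the test over all 22011 probe sets in any comparison. The test was a limma moderated test on the 3 groups with Benjamini-Hochberg adjustment, and a call was an adjusted p below 0.05. It called 8 probe sets (0.0363%) in siDBC1 against siCTR, 33 (0.150%) in siZNF326 against siCTR and 2 (0.00909%) in siZNF326 against siDBC1. With so few calls among all probe sets, 0 calls among 10 says little about the family. At an unadjusted p below 0.05 the members counted 1 of 10 in siDBC1 against siCTR, beside 6.18% of all probe sets. They counted 3 of 10 in siZNF326 against siCTR, beside 8.65%, and 0 of 10 in siZNF326 against siDBC1, beside 7.31%. The first count was BAX, and the second was BAX, HRK and BAK1. The comparisons with siCTR share their control arrays.

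**Figure D1:**
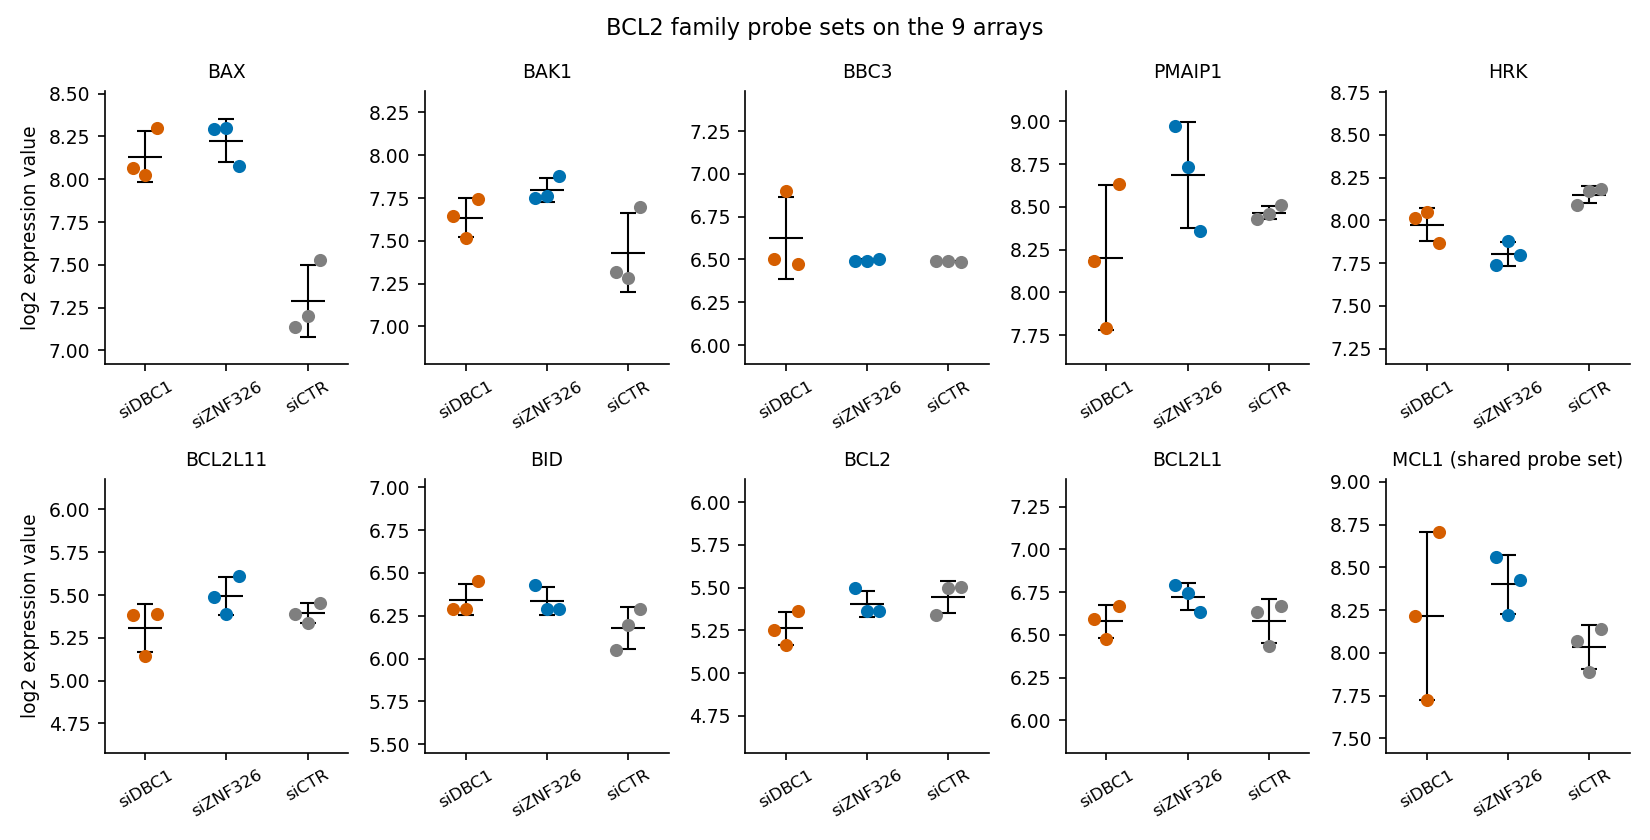
Each panel plots the log2 expression value (y axis, with the same span of log2 units in each panel) of 1 probe set on the arrays labelled siDBC1, siZNF326 and siCTR (points, replicates 1 to 3 from left to right), with the group mean and SD as bars. BAX stood at 8.03 to 8.30 on the 6 siDBC1 and siZNF326 arrays, above 7.14 to 7.53 in siCTR, and the other members overlapped or differed by less.

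BAX, which encodes a pore former, was the member with the greatest difference from siCTR in both comparisons. BAX (probe set 3838067) read 8.07, 8.03 and 8.30 in siDBC1, 8.29, 8.30 and 8.08 in siZNF326, and 7.14, 7.20 and 7.53 in siCTR. All 6 arrays of the siDBC1 and siZNF326 groups lay above all 3 siCTR arrays, and the siDBC1 and siZNF326 arrays overlapped each other. The means were 8.13 ± 0.15 in siDBC1, 8.22 ± 0.13 in siZNF326 and 7.29 ± 0.21 in siCTR (SD, n = 3 each). The difference of siDBC1 from siCTR was 0.84 (SE 0.13, 95% interval 0.54 to 1.15), a 1.79-fold higher level with limma adjusted p = 0.170. For siZNF326 it was 0.94 (SE 0.13, 95% interval 0.63 to 1.24), a 1.91-fold higher level with limma adjusted p = 0.0613. By unadjusted p BAX ranked 32nd and 45th of the 22011 probe sets. Both differences stayed positive under each of 16 other settings, at 0.76 to 0.96 in siDBC1 and 0.80 to 1.05 in siZNF326. The adjusted p fell below 0.05 in both comparisons when arrays were quantile normalized (0.0321 in siDBC1 and 0.0244 in siZNF326) or centred on their medians (0.0362 and 0.0191). Of the 16 other settings, BAX passed in only 2 in siDBC1 and 4 in siZNF326. Its largest limma adjusted p among them was 0.679 in siDBC1 and 0.306 in siZNF326. Relative to the array median BAX stood 2.33 to 2.45 higher in siDBC1, 2.32 to 2.53 in siZNF326 and 1.46 to 1.75 in siCTR.

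Groups without overlap were also counted over all probe sets. All 3 siDBC1 arrays lay above all 3 siCTR arrays for 5.18% of probe sets and below them for 3.66%. For siZNF326 against siCTR the shares were 12.9% and 5.27%. Among the 10 members BAX was above and HRK below in siDBC1, and BAX, BAK1 and the MCL1 shared probe set were above and HRK below in siZNF326. In siZNF326 against siDBC1, BAK1 alone was above, beside 5.21% of probe sets, and no member was below, beside 4.24%.

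BAK1, whose product forms the same kind of pore as BAX, differed less. BAK1 (probe set 2950753) read 7.64, 7.52 and 7.74 in siDBC1, 7.75, 7.76 and 7.88 in siZNF326, and 7.32, 7.28 and 7.70 in siCTR. Every siZNF326 array was above every siCTR array, while siDBC1 overlapped siCTR through siCTR replicate 3, the highest control. The siZNF326 difference was 0.37 (SE 0.13, 95% interval 0.076 to 0.66, limma adjusted p = 0.447) and the siDBC1 difference was 0.20 (SE 0.13, 95% interval −0.087 to 0.49, limma adjusted p = 0.928). Quantile normalization lowered the siZNF326 difference to 0.22. The siDBC1 difference was 0.34 without siCTR replicate 3 and 0.13 without siCTR replicate 2. Relative to the array median BAK1 stood at 1.85 to 2.12 in siZNF326 and 1.57 to 1.92 in siCTR, so these groups overlapped on that scale.

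BBC3 and PMAIP1, BH3-only genes induced by several kinds of stress, showed no separation from siCTR. BBC3, which encodes PUMA (probe set 3866435), read 6.50, 6.90 and 6.47 in siDBC1, 6.49, 6.49 and 6.50 in siZNF326, and 6.49, 6.49 and 6.49 in siCTR. The value of siDBC1 replicate 2 stood alone, and 4 of the 9 arrays carried one identical value. The differences from siCTR were 0.14 in siDBC1 (SE 0.12, limma adjusted p = 0.965) and 0.0053 in siZNF326 (SE 0.12, limma adjusted p = 0.995), with 95% intervals of −0.13 to 0.40 and −0.26 to 0.27. Without siDBC1 replicate 2 the siDBC1 difference was −0.0029.

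PMAIP1, which encodes NOXA, varied widely within siDBC1 (SD 0.42) and siZNF326 (SD 0.31) and little within siCTR (SD 0.039). PMAIP1 (probe set 3790704) read 8.18, 7.79 and 8.64 in siDBC1, 8.97, 8.73 and 8.36 in siZNF326, and 8.43, 8.46 and 8.51 in siCTR. The siCTR arrays lay close together, and the arrays of both other groups fell on either side of them. The pooled SD within groups was 0.30 (above that of 68.7% of probe sets), against a median of 0.21 over all probe sets. The differences from siCTR were −0.26 in siDBC1 (SE 0.23, limma adjusted p = 0.966) and 0.22 in siZNF326 (SE 0.23, limma adjusted p = 0.797). Their 95% intervals ran from −0.79 to 0.26 and from −0.31 to 0.75. PMAIP1 had the greatest member difference between siZNF326 and siDBC1, 0.48 (SE 0.23, 95% interval −0.042 to 1.01, limma adjusted p = 0.699). Single arrays moved these values. The siDBC1 difference was −0.48 without siDBC1 replicate 3 and −0.056 without siDBC1 replicate 2. The siZNF326 difference was 0.079 without siZNF326 replicate 1, 0.39 without siZNF326 replicate 3 and 0.11 after quantile normalization. The difference between siZNF326 and siDBC1 was 0.28 without siDBC1 replicate 2.

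HRK was the member whose values lay below siCTR on all arrays of both groups. Harakiri, its product, binds BCL2 and BCL-XL and is best known from neurons. HRK (probe set 3473378) read 8.01, 8.05 and 7.87 in siDBC1, 7.74, 7.88 and 7.80 in siZNF326, and 8.09, 8.17 and 8.18 in siCTR. No siCTR array overlapped either group, and siDBC1 replicate 3 fell within the range of siZNF326. The siZNF326 difference was −0.34 (SE 0.080, 95% interval −0.53 to −0.16), a 1.27-fold lower level with limma adjusted p = 0.241. The siDBC1 difference was −0.17 (SE 0.080, 95% interval −0.36 to 0.012), a 1.13-fold lower level with limma adjusted p = 0.844. The pooled SD was 0.075, lower than that of most probe sets (10.3% were lower still). HRK stayed below siCTR under all 16 other settings in both comparisons and passed in none, with the smallest adjusted p at 0.146 in siZNF326. Relative to the array median HRK stood at 1.98 to 2.47 in siDBC1, 1.84 to 2.11 in siZNF326 and 2.41 to 2.47 in siCTR, so siDBC1 overlapped siCTR on that scale and siZNF326 did not.

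The group means of BCL2L11 and BID stayed within 0.17 of the siCTR mean. BCL2L11, which encodes BIM and is induced by FOXO factors and CHOP (probe set 2500275), read 5.38, 5.14 and 5.39 in siDBC1, 5.49, 5.39 and 5.61 in siZNF326, and 5.39, 5.34 and 5.45 in siCTR. Its groups overlapped, at differences of −0.089 in siDBC1 (SE 0.098, 95% interval −0.32 to 0.14) and 0.10 in siZNF326 (SE 0.098, 95% interval −0.12 to 0.33). BID, whose product links death receptors to mitochondria (probe set 3951927), read 6.29, 6.29 and 6.45 in siDBC1, 6.43, 6.29 and 6.29 in siZNF326, and 6.05, 6.19 and 6.29 in siCTR. One identical value was carried by 5 of the 9 arrays, at least 1 in each group, so BID was not separated in either comparison. Its differences were 0.17 in siDBC1 (SE 0.093, 95% interval −0.049 to 0.38) and 0.16 in siZNF326 (SE 0.093, 95% interval −0.056 to 0.37). Without siCTR replicate 1 the BID differences were 0.10 in siDBC1 and 0.095 in siZNF326, and quantile normalization lowered the siZNF326 difference to 0.039. That of BCL2L11 was −0.0080 in siDBC1 without siDBC1 replicate 2. In siZNF326 it ran from 0.044 to 0.15 without siZNF326 replicate 3 or siZNF326 replicate 2 and was 0.010 with arrays centred. The limma adjusted p of these genes lay between 0.668 and 0.979 in the comparisons with siCTR.

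**Figure D2:**
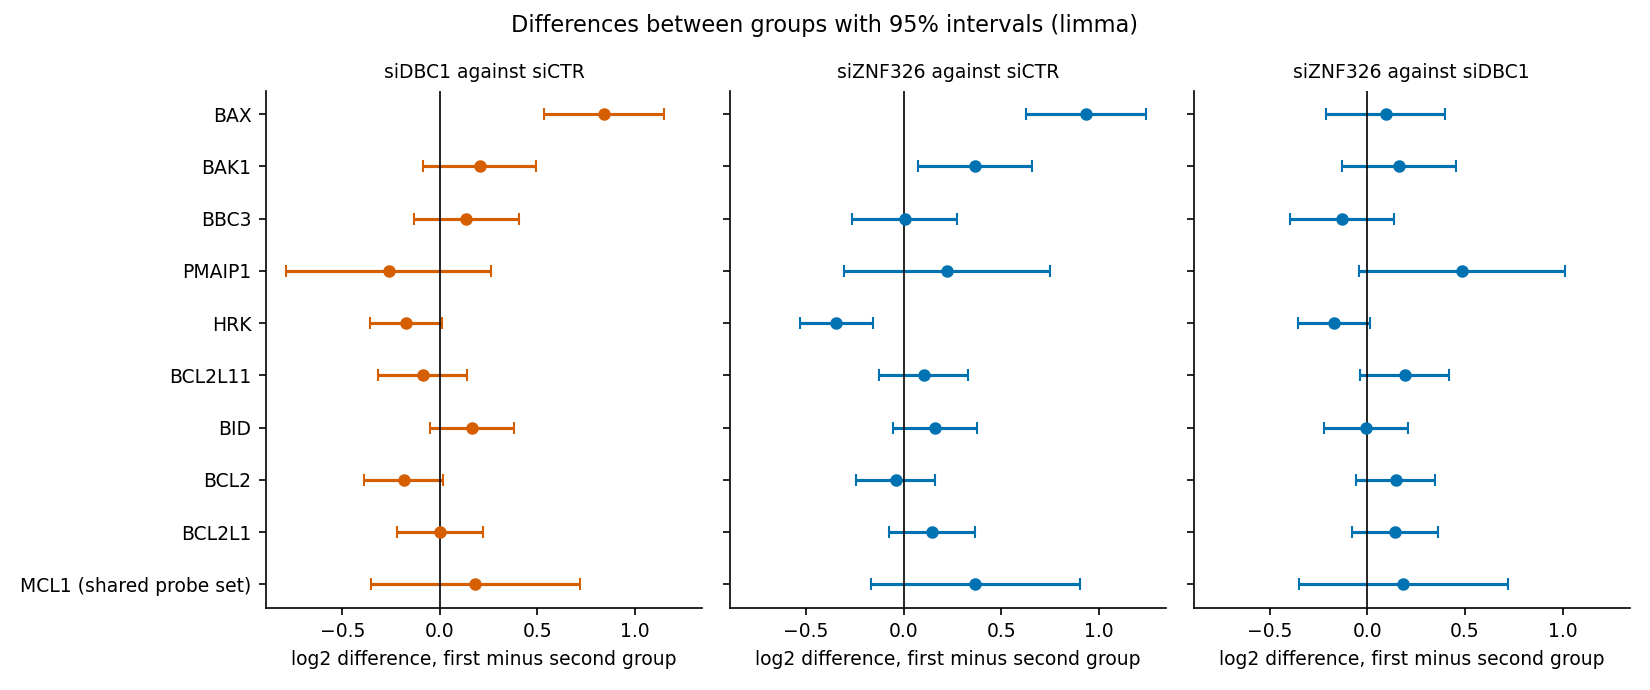
The log2 difference of each probe set (x axis, first group minus second group, points) is drawn with its 95% limma interval (bars) for the 3 comparisons, genes in rows. The BAX interval stands above 0 against siCTR in siDBC1 (0.54 to 1.15) and in siZNF326 (0.63 to 1.24), those of BAK1 and HRK exclude 0 in siZNF326 against siCTR, and no interval excludes 0 in siZNF326 against siDBC1.

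BCL2 and BCL2L1, the survival genes with a probe set of their own, showed no call and small differences. BCL2 (probe set 3811339) read 5.25, 5.17 and 5.36 in siDBC1, 5.49, 5.36 and 5.36 in siZNF326, and 5.34, 5.50 and 5.50 in siCTR. Only siDBC1 replicate 3 overlapped siCTR in the siDBC1 group, and siZNF326 lay within the siCTR range. The siDBC1 difference was −0.19 (SE 0.087, 95% interval −0.39 to 0.017, limma adjusted p = 0.855), and the siZNF326 difference was −0.040 (SE 0.087, 95% interval −0.24 to 0.16, limma adjusted p = 0.908). The siZNF326 difference of BCL2 was −0.094 without siCTR replicate 1, −0.012 without siCTR replicate 3 and −0.13 with arrays centred. BCL2L1, the gene of BCL-XL (probe set 3902489), read 6.59, 6.48 and 6.67 in siDBC1, 6.79, 6.75 and 6.64 in siZNF326, and 6.64, 6.43 and 6.67 in siCTR. The groups overlapped, with differences of 0.00052 in siDBC1 (SE 0.095, 95% interval −0.22 to 0.22, limma adjusted p = 1) and 0.14 in siZNF326 (SE 0.095, 95% interval −0.076 to 0.36, limma adjusted p = 0.703). The siZNF326 difference of BCL2L1 was 0.071 without siCTR replicate 2 and 0.014 after quantile normalization.

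The probe set shared by MCL1, ADAMTSL4 and ADAMTSL4-AS1 varied with the arrays. MCL1 is a short-lived survival protein, and ADAMTSL4 a matrix protein. The shared probe set read 8.22, 7.73 and 8.71 in siDBC1, 8.56, 8.22 and 8.42 in siZNF326, and 8.07, 7.89 and 8.14 in siCTR. The lowest and highest of the 9 values were both in siDBC1, on the arrays with the lowest median (5.58) and the second highest (5.89), and the part of array scaling in this was not tested. The differences from siCTR were 0.18 in siDBC1 (SE 0.23, 95% interval −0.35 to 0.72, limma adjusted p = 0.983) and 0.37 in siZNF326 (SE 0.23, 95% interval −0.17 to 0.90, limma adjusted p = 0.689).

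Set against the survival genes on the same array, BAX was higher in both siRNA groups. A difference of logs within an array compares how 2 probe sets changed, not their levels, and is given here relative to its siCTR mean with no test. BAX minus BCL2 was 0.97, 1.02 and 1.10 in siDBC1, 0.96, 1.10 and 0.87 in siZNF326, and −0.045, −0.14 and 0.18 in siCTR. BAX minus BCL2L1 was 0.76, 0.84 and 0.92 in siDBC1, 0.80, 0.84 and 0.73 in siZNF326, and −0.21, 0.060 and 0.15 in siCTR. Against the MCL1 shared probe set the values ran from 0.34 to 1.05 in siDBC1, from 0.40 to 0.83 in siZNF326 and from −0.19 to 0.13 in siCTR. BAX minus BAK1, the comparison of the pore formers, averaged 0.64 ± 0.067 in siDBC1, 0.57 ± 0.19 in siZNF326 (SD, n = 3 each), and ran from −0.039 to 0.065 in siCTR. BCL2 and BCL2L1 themselves differed from siCTR by −0.19 to 0.14, and the MCL1 shared probe set by 0.18 in siDBC1 and 0.37 in siZNF326.

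**Figure D3:**
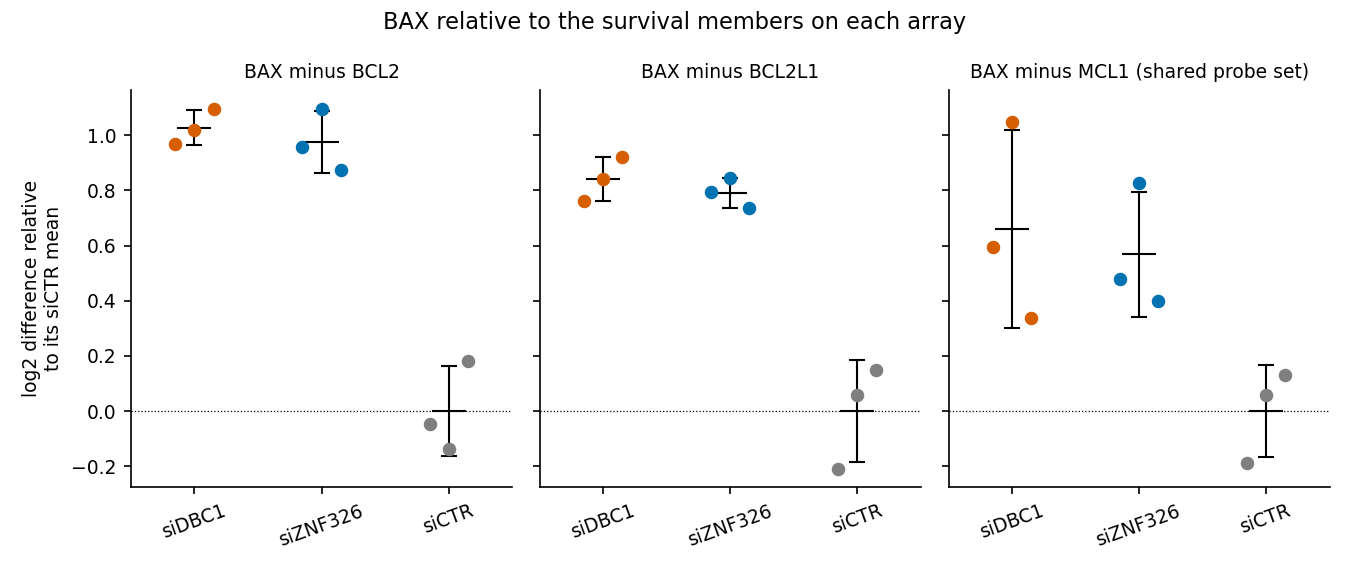
The y axis gives, for each array (points, replicates 1 to 3 from left to right), the log2 value of BAX minus that of BCL2, BCL2L1 or the MCL1 shared probe set, relative to the siCTR mean of the same difference, with group mean and SD as bars. Against BCL2 the siDBC1 arrays stand at 0.97 to 1.10 and the siZNF326 arrays at 0.87 to 1.10, above −0.14 to 0.18 in siCTR.

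As a family the members were spread around a small shift. Of the 10, 6 were above siCTR in siDBC1 and 8 in siZNF326, beside 53.8% and 56.6% of all probe sets. Their median difference was 0.068 in siDBC1 and 0.15 in siZNF326, beside 0.014 and 0.032 over all probe sets. In siZNF326 against siDBC1 7 of 10 were above, beside 55.4% of all probe sets, with a median of 0.14 beside 0.024. By role, both pore formers were above siCTR in both comparisons, while the BH3-only genes and the survival genes pointed in both directions.

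The rest of the pathway was read from lists of 60 genes, of which 51 had a probe set of their own. Other members of the BCL2 family showed no call in 9 measured genes (BOK, BCL2A1 and BCL2L12 had no probe set of their own). Their median difference was −0.044 in siDBC1 and 0.074 in siZNF326. BNIP3L, a mitophagy receptor, was 0.35 above siCTR in siZNF326 (SE 0.16, limma adjusted p = 0.603), with all 3 arrays above all 3 of siCTR. BNIP3, its hypoxia-induced relative, differed by −0.51 in siDBC1 and 0.074 in siZNF326. BCL2L13 differed by −0.44 and −0.27, and BCL2L2, the survival gene of BCL-W, by −0.34 and 0.23. The lowest siDBC1 value of each was on replicate 2, the array with the lowest median, at 7.17 for BNIP3, 5.50 for BCL2L13 and 5.41 for BCL2L2.

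Downstream of the pore, cytochrome c binds APAF1, which activates caspase-9, and inhibitors of apoptosis block the caspases. Of 13 measured genes of this group 0 were called in either comparison with siCTR, with medians of 0.020 in siDBC1 and 0.15 in siZNF326. APAF1 read 7.04, 6.55 and 7.77 in siDBC1, 8.02, 7.28 and 7.22 in siZNF326, and 6.35, 6.67 and 7.01 in siCTR. The siZNF326 arrays lay above siCTR by 0.83 (SE 0.35, limma adjusted p = 0.565), and replicate 1, the array with the highest median, was the highest of them. CASP10, an initiator caspase of death receptors, was 0.61 above siCTR in siZNF326 (SE 0.20, limma adjusted p = 0.433). Its siCTR values of 4.33, 4.11 and 4.52 lay near the lower quartiles of those arrays (4.10, 4.11 and 4.12), so this difference starts from a low level. CASP2, an initiator caspase of the PIDD complex, differed by −0.55 in siDBC1 (SE 0.17, limma adjusted p = 0.635) and by −0.076 in siZNF326. BIRC5, which encodes survivin and is highest in dividing cells, differed by −0.31 in siDBC1 and −0.22 in siZNF326.

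Genes of stress-induced death and cell cycle arrest held 2 calls. Of 14 listed genes, all with a probe set of their own, 2 rose in siZNF326 and 0 were called in siDBC1. TP53I3, a quinone oxidoreductase tied to oxidative stress, read 6.46, 6.41 and 6.58 in siDBC1, 7.39, 7.28 and 7.15 in siZNF326, and 5.78, 5.46 and 5.61 in siCTR. It rose by 1.66 in siZNF326 (SE 0.11, limma adjusted p = 0.00523) and stood 0.87 above siCTR in siDBC1 (SE 0.11, limma adjusted p = 0.0874). CDKN1A, the cell cycle inhibitor p21, rose by 1.51 in siZNF326 (SE 0.14, limma adjusted p = 0.0216) and stood 0.85 above siCTR in siDBC1 (limma adjusted p = 0.216). MDM2, a ubiquitin ligase, read 9.58, 9.11 and 8.84 in siZNF326 and 7.78, 7.83 and 8.32 in siCTR, a difference of 1.20 (SE 0.26, limma adjusted p = 0.207). AIFM2 differed by 0.28 in siDBC1 and 0.37 in siZNF326. In siZNF326, 11 of the 14 lay wholly above siCTR and 1 wholly below, beside 12.9% and 5.27% of all probe sets, and in siDBC1 4 lay above and 0 below, beside 5.18% and 3.66%. The list was chosen with earlier results of these data known, so these counts give no separate support. The list median was 0.25 in siDBC1 and 0.49 in siZNF326. The call of TP53I3 held in 7 of the 9 omissions of 1 array and ended without siCTR replicate 3 or siZNF326 replicate 2, and that of CDKN1A held in 2 of 9, without siDBC1 replicate 2 or siDBC1 replicate 3. The call of CDKN1A also ended in a fit of siZNF326 and siCTR alone. In siZNF326 against siDBC1 the differences were 0.093 for BAX (95% interval −0.21 to 0.40), 0.79 for TP53I3 (limma adjusted p = 0.189), 0.66 for CDKN1A (limma adjusted p = 0.414) and 0.81 for MDM2 (limma adjusted p = 0.645), and none passed.

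**Figure D4:**
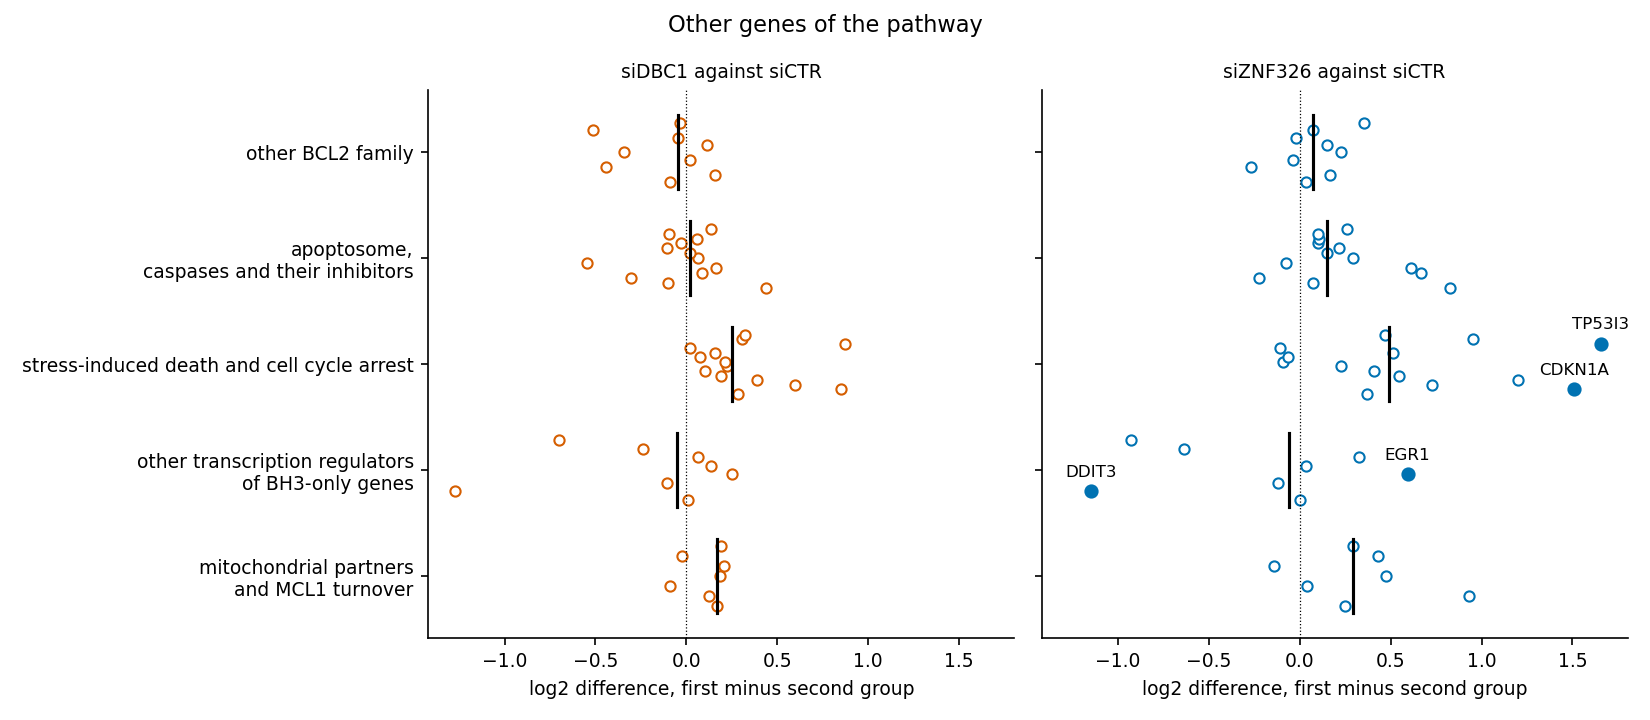
Each point is the log2 difference from siCTR (x axis, siDBC1 on the left and siZNF326 on the right) of 1 gene of the 5 lists (rows), filled and named where limma called it, with the list median as a vertical bar. The calls are TP53I3 and CDKN1A above siCTR, EGR1 above and DDIT3 below, all in siZNF326.

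Transcription factors that drive BH3-only genes split in direction. DDIT3, which encodes CHOP and raises BCL2L11 and BBC3 under stress of the endoplasmic reticulum, read 5.34, 5.38 and 5.70 in siDBC1, 5.69, 5.43 and 5.66 in siZNF326, and 6.56, 6.70 and 6.97 in siCTR. It fell by 1.15 in siZNF326 (SE 0.14, limma adjusted p = 0.0391) and differed by −1.27 in siDBC1 (SE 0.14, limma adjusted p = 0.0607). TRIB3, a pseudokinase induced by CHOP, differed by −0.70 in siDBC1 (limma adjusted p = 0.313) and by −0.93 in siZNF326 (limma adjusted p = 0.0789). EGR1, an immediate early factor, read 6.31, 6.26 and 6.31 in siDBC1, 6.61, 6.66 and 6.63 in siZNF326, and 6.08, 6.12 and 5.93 in siCTR. It rose by 0.59 in siZNF326 (SE 0.073, limma adjusted p = 0.0376) and differed by 0.25 in siDBC1 (limma adjusted p = 0.579). Without 1 array at a time the call of DDIT3 held in 2 of 9 omissions (siDBC1 replicate 2 or siDBC1 replicate 3) and that of EGR1 in 1 of 9 (siDBC1 replicate 2). Both calls also ended in a fit of siZNF326 and siCTR alone, and that of EGR1 after quantile normalization and with arrays centred. MYC differed by −0.63 in siZNF326 (limma adjusted p = 0.204). Over the 8 measured genes (FOXO3 had no probe set of its own) the medians were −0.051 in siDBC1 and −0.061 in siZNF326.

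Mitochondrial partners of BAX and BAK1 and enzymes that turn over MCL1 showed no call in 7 measured genes (HUWE1 and USP9X had no probe set of their own). Their medians were 0.17 in siDBC1 and 0.29 in siZNF326. FBXW7, a ubiquitin ligase subunit that marks MCL1 and MYC proteins for degradation, read 5.40, 4.75 and 5.72 in siDBC1, 6.34, 5.87 and 6.09 in siZNF326, and 5.22, 5.02 and 5.26 in siCTR. Its siZNF326 arrays lay above all others, 0.93 above siCTR (SE 0.24, limma adjusted p = 0.291). VDAC2, which holds BAK1 at the outer membrane, read 3.15, 2.64 and 3.13 in siDBC1, 3.41, 3.46 and 3.40 in siZNF326, and 3.09, 2.84 and 3.05 in siCTR. These values lay below the lower quartile of every array (4.09 to 4.16), so its level may not have been measured, and its differences are not given. MTCH2, the receptor of cleaved BID, differed by 0.47 and VDAC3 by 0.29 in siZNF326.

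The probe sets with 1 symbol whose pattern over the 9 arrays was nearest to BAX were CTSA, GINS1, PNP, ATP6V0D1 and TMSB10. Likeness was the root mean square difference of log2 values after centring each probe set on its own mean, which ran from 0.11 to 0.14 for these 5, beside a root mean square of 0.44 for BAX itself. CTSA encodes a lysosomal protease and ATP6V0D1 a subunit of the proton pump that acidifies lysosomes. GINS1 serves DNA replication, PNP purine salvage, and TMSB10 binds actin monomers. The siDBC1 difference of CTSA from siCTR was 0.87 and the siZNF326 difference was 1.12, which passed (limma adjusted p = 0.0216), and those of TMSB10 were 0.80 and 0.88 (limma adjusted p = 0.0282 in siZNF326). Both calls held in 2 of the 9 omissions of 1 array, without siDBC1 replicate 2 or siDBC1 replicate 3, and ended in a fit of siZNF326 and siCTR alone. These 5 were chosen by their likeness to BAX on the same arrays, so their differences from siCTR give no separate support. In the promoter search CTSA held 2 E-boxes and ATP6V0D1 held 1, each with 1 copy of the longer form. None was found for GINS1, PNP and TMSB10. Of all promoters, 7.26% held at least 1 E-box and 0.98% the longer form. The motif was chosen after the BAX sequence had been seen, and a shared cause was not tested. For HRK the nearest were TMEM134, CAVIN2, FGG, C16orf82 and SHARPIN, at 0.068 to 0.073 beside 0.15 for HRK itself. Their siZNF326 differences ran from −0.25 to −0.20, less than that of HRK. No ATF4 and CHOP element was found for TMEM134, CAVIN2, FGG and C16orf82, and no promoter was searched for SHARPIN.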

How the data were processed

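Per the labels, RNA was column-purified with DNase treatment, put through a RiboMinus kit and hybridized to Affymetrix whole-transcript arrays. The authors deposited 1 log2 value per probe set and array. The submitters' processing notes name RMA and build hg18. For RMA, settings and version are not given in the sources used here. Background and detection values were not used. Groups and replicates came from sample titles.

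The platform annotation gave 1 symbol to 14432 of the 22011 probe sets, several to 2408 and none to 5171. No 2 of the arrays were identical. A linear model with 3 groups was fitted to all probe sets with limma 3.58.1 (lmFit, eBayes, two-sided) in R 4.3.3, with Benjamini-Hochberg adjustment within each comparison and calls at an adjusted p below 0.05. It was tested on simulated data with independent noise for each probe set and no array-wide shifts, so that test does not cover array scaling. The labels speak of 3 independent experiments, and p-values measure the spread between these samples.

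Named genes were the 10 members, CCAR2, ZNF326, and, from each of 5 pathway lists, every called gene and up to 4 with the smallest p (1 probe set per gene, the one with the highest mean), and the 5 nearest patterns of BAX and HRK. Members and lists were chosen with earlier results of these data known. Promoters came from a RefSeq table on GRCh38.p14, matched by symbol. One listed gene and 1 planned promoter motif are not reported here. Protein comparisons were planned but not run, since no protein sequences were used here. Alternatives were quantile normalization, median centring, fits of 2 groups, a replicate block, a filter at the lower quartile of means, trended robust variance, single-symbol probe sets and leaving out each array.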

Additional observations from a re-analysis of the deposited data

How the results depend on the processing

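The number of arrays limits the precision, and signal over background was not used here. Calls over all probe sets depended on the scaling and on single arrays. In siDBC1 against siCTR the 8 calls became 69 after quantile normalization, 46 with arrays centred on their medians, 4 with trended robust variance, 0 in a fit of these groups alone and 0 with the replicate block (limma, 1100 and 1360 at an unadjusted p below 0.05), and ranged from 0 to 4 without 1 array. In siZNF326 against siCTR the 33 became 196 after quantile normalization (89 higher and 107 lower, against 20 and 13) and 119 with arrays centred (57 higher and 62 lower), 5 with only the groups compared, 1 with the replicate block and 52 among probe sets with 1 symbol, and ranged from 1 to 64 without 1 array (64 without siDBC1 replicate 2). In siZNF326 against siDBC1 the 2 became 28 after quantile normalization, 9 with arrays centred, 0 with only the groups compared and 0 with the replicate block (limma, 1118 and 1769 at an unadjusted p below 0.05) and 4 among probe sets with 1 symbol, and ranged from 0 to 1 without 1 array. The count of 0 family calls became 1, BAX, after quantile normalization and with arrays centred in both comparisons with siCTR, and in siZNF326 also with the filter on low means (adjusted p = 0.0413) and among probe sets with 1 symbol (adjusted p = 0.0379). No family probe set was called in any omission of 1 array, in siZNF326 against siDBC1 or with the replicate block, where BAX had adjusted p = 0.457 in siDBC1 and 0.194 in siZNF326. The calls of CCAR2, TP53I3, CDKN1A, DDIT3, EGR1, CTSA and TMSB10 ended with the replicate block. Same-numbered arrays did not deviate together throughout. Correlations of their deviations from the group mean were 0.024 to 0.25 between siDBC1 and siCTR and −0.18 to 0.096 between siZNF326 and siCTR. Between siZNF326 and siDBC1 they were −0.30 to 0.40. With 3 arrays per group these correlations cannot tell whether same-numbered arrays came from 1 experiment, and the labels do not say. With fewer probe sets tested the adjustment is smaller by construction. For the other changes the cause was not tested.

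Signs turned for 8 of the member differences, none of them called. BCL2L1 in siDBC1 against siCTR was −0.011 after quantile normalization and −0.014 with arrays centred, and ranged from −0.072 to 0.052 without 1 array. BBC3 in siZNF326 against siCTR was −0.13 and −0.086 under the same scalings, and in siDBC1 against siCTR it ranged from −0.0029 to 0.21 without 1 array. The MCL1 shared probe set ranged from −0.063 to 0.43 in siDBC1 against siCTR and from −0.061 to 0.43 in siZNF326 against siDBC1 without 1 array. In siZNF326 against siDBC1, BAX was −0.030 after quantile normalization, BBC3 ranged from −0.21 to 0.0082 and BID from −0.053 to 0.047 without 1 array. Among the other listed genes the count of 0 calls in siDBC1 against siCTR became at most 2, and the 4 in siZNF326 against siCTR ranged from 0 to 6. MCL1 shared probe set values could not be given among probe sets with 1 symbol.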

Other observations

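Several family probe sets carried the same value on more than 1 array. One value was shared by 5 arrays for BID, 4 for BBC3, 3 for BCL2L11, 3 for BCL2 and 2 for BCL2L1, while BAX, BAK1, PMAIP1, HRK and the MCL1 shared probe set had 9 distinct values. The pooled SD within groups was 0.16 for BAX, 0.15 for BAK1, 0.10 for BID and 0.089 for BCL2, beside a median of 0.21 over all probe sets.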
